A study of Mus musculus with 12 samples.

Results

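The renin-angiotensin and endothelin systems were examined through 9 genes, Ren1, Agt, Ace, Agtr1a, Enpep, Edn1, Ednra, Ednrb and Ece1, chosen by symbol among the 14096 genes listed for glomeruli of eNOS-/- mice. All 9 were listed in every mouse, with between 88 reads (Agt) and 78748 reads (Enpep) per library. In vehicle-treated mice, diabetes went with lower Ren1 and higher Ece1, calls that were lost on leaving out any of 6 and any of 3 of the 12 mice. Proximal tubule and endothelial marker means differed by -1.64 and 0.32 in that comparison, without overlap. Arctigenin (ATG, a plant lignan) gave no called gene in diabetic mice, and in nondiabetic mice Agtr1a, Ednra and Ece1 were lower with it. Those 3 calls were lost on leaving out any of 5, any of 3 and any of 9 of the 12 mice. With only the 2 nondiabetic groups in the fit, 0 genes were called. The test of the difference between the ATG effects in diabetic and nondiabetic mice called none of the 3 (limma adjusted p = 0.108, 0.203 and 0.344). Between the same nondiabetic groups, endothelial and mesangial marker means differed by -0.63 and -0.90, and proximal tubule marker means by 0.81, without overlap.

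The 12 male mice formed 4 groups of 3, all homozygous for the eNOS deletion on a C57BL/6J background, which predisposes diabetic mice to kidney disease. Diabetic mice had received streptozotocin (STZ, a toxin of the insulin-producing beta cells) at 8 weeks of age, 50 mg/kg on 5 days, and nondiabetic mice the citrate buffer alone. From 10 weeks after induction, mice of each kind were gavaged for 8 weeks with ATG at 40 mg/kg per day or with vehicle (5% DMSO), and glomeruli were taken 18 weeks after induction. STZ gives a toxin-induced, insulin-deficient diabetes. Mice are numbered 1 to 3 within a group only as names. Nothing in the labels says whether mice of a group shared a litter or cage, so p-values measure the spread between these mice.

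Renin cleaves angiotensinogen (Agt) to angiotensin I, which angiotensin-converting enzyme (Ace) turns into angiotensin II. Angiotensin II constricts vessels, the efferent arteriole of the glomerulus among them, through the type 1 receptor (Agtr1a), and aminopeptidase A (Enpep) degrades it. In the endothelin system, endothelin-converting enzyme (Ece1) processes the precursor made from Edn1 to endothelin-1, a constrictor peptide that acts on the A receptor (Ednra) of contractile cells and on the B receptor (Ednrb), which endothelium carries. Blockers of both systems are used against proteinuric kidney disease.

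The promoters of Ren1, Ece1 and Ednra, which were each called in at least 1 comparison, are shown for the core elements they hold. Ace was also called, between the ATG-treated groups, but its windows are not printed. RefSeq gave windows for 8 of the 9 members, all but Agtr1a, and only the 250 bases before each start are used. Capitals mark the letters of the element known as a TATA box, TATAAA, and of the CCAAT box, searched on both strands, so that the reverse complement of the latter, ATTGG, is also in capitals. The windows, read 5′ to 3′ on the gene's strand in GRCm38.p6, are Ren1 at chr1:133350424-133350673 (plus strand), Ece1 at its first start, chr4:137861987-137862236 (plus strand), and Ednra at chr8:77724453-77724702 (minus strand).
Ren1: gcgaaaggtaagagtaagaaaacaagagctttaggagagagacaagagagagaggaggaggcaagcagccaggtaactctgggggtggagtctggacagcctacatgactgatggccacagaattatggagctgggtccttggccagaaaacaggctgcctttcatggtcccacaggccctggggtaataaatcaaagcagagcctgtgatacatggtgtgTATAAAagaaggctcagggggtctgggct
Ece1: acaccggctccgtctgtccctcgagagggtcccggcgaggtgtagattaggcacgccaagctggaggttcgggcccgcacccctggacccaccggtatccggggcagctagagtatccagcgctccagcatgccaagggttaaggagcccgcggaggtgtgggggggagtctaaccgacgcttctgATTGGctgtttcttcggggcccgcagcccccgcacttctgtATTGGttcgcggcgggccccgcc
Ednra: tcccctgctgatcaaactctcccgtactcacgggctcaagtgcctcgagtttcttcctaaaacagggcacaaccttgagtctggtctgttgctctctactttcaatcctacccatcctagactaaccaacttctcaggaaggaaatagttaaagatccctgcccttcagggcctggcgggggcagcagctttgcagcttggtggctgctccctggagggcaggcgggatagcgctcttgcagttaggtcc
Ren1 has a TATA box that begins 29 bases before the start, an element that 12.4% of the 32851 RefSeq windows hold. The Agt window holds one 30 bases, the first Ace window one 31 bases and the Enpep window one 52 bases before the start. Ece1 has 2 CCAAT boxes, at 64 and 23 bases, and CCAAT occurs in 33.8% of all windows. The Ednra window held neither element, nor GGGCGG (GC box, 32.7% of windows) or TGACGTCA (cAMP response element, 1.55%).

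The libraries held between 23.6 and 29.8 M (mega) reads on these genes. Reads on Nos3, the gene disrupted in all 12 mice, ranged from 846 to 2703. Podocyte markers, such as Nphs1 and Podxl, were listed for 17 of 17 genes, with a mean log2 level between 12.93 and 14.52 per mouse. Proximal tubule markers were also present (29 of 29 listed, such as Slc34a1 and Lrp2) and stood between 11.17 and 12.94 in nondiabetic mice and between 9.35 and 10.86 in diabetic mice. The ATG-treated nondiabetic mice stood apart. Their proximal tubule markers lay between 12.24 and 12.94 against 11.17 to 12.055 with vehicle, higher by 0.81 without overlap. Distal nephron markers were higher by 0.46, with overlap. Their endothelial markers (20 of 20) lay between 11.73 and 12.40 against 12.61 to 12.77 with vehicle, and their mesangial markers (9 of 9) between 11.34 and 11.65 against 12.29 to 12.58. In such bulk tissue, fewer cells of a type and less RNA per cell cannot be told apart.

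Per kilobase of transcript, Enpep was the most abundant member by far, with a median of 13000 normalised reads per kilobase over the 12 mice (range 5930 to 18700). Ece1 (median 1880), Ren1 (1270) and Agtr1a (1320) followed. Their order was not fixed, since Ece1 exceeded Ren1 in 8 of 12 mice and Ren1 exceeded Agtr1a in 7 of 12. Ednrb (731) was below Agtr1a in 12 of 12 mice and above Edn1 (179) in 12 of 12. The low end held Ace (155), Agt (72.1) and Ednra (84.3). Edn1 exceeded Ace in 9 of 12 mice, Ace exceeded Agt in 9 of 12 and Agt exceeded Ednra in 5 of 12. The B receptor transcript was above the A receptor transcript in each of the 12 mice.

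**Figure D1:**
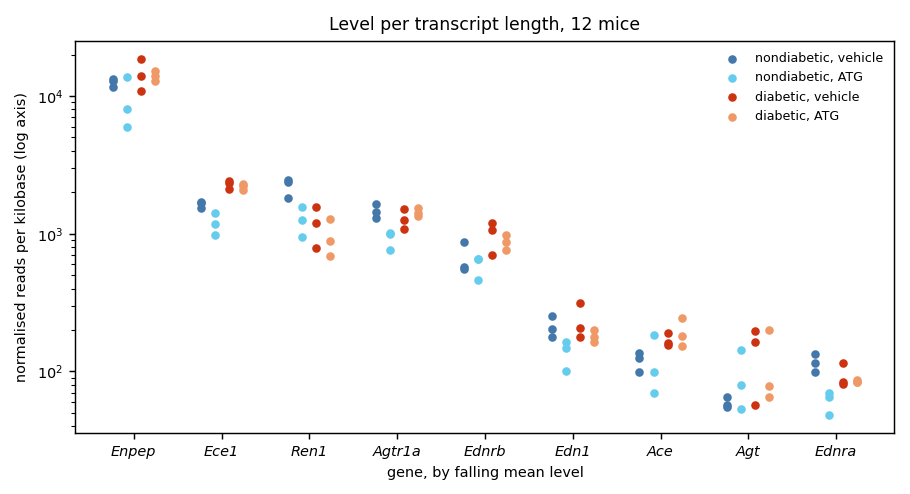
Normalised reads per kilobase of transcript (log axis) for the 9 genes, with 1 point per mouse coloured by group (3 mice each), ordered by mean log2 level. Enpep lies above all other genes, and the levels of Ece1, Ren1 and Agtr1a overlap.

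Groups were compared with limma in a single model of the 4 groups, and p-values were adjusted over the 14096 genes by the Benjamini-Hochberg method. A gene is called at an adjusted p under 0.05. Between diabetic and nondiabetic mice on vehicle, 2 of the 9 members were called, 1 higher and 1 lower, against 18.9% of all genes. Their median log2 fold change was 0.17 against 0.01 over all genes. The 3 values of each group did not overlap for 3 members, against 41.7% of all genes. With ATG in both arms, 4 members were called, all higher in diabetic mice, against 46.7% of all genes in either direction (3649 higher and 2936 lower). Of the members, 4 did not overlap, against 56.1% of all genes. The members' median was 0.57 against 0.05 over all genes.

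ATG against vehicle in diabetic mice gave 0 called members and 0 called genes (0% of 14096) in limma and in limma-voom. There, 636 genes had an unadjusted p under 0.05, the lowest adjusted p was 0.248 and no member's groups separated (10.2% of all genes did). In nondiabetic mice, 3 members were called, all lower with ATG, against 5.22% of all genes, of which 636 of 736 were lower. Of the members, 5 did not overlap, against 34.4% of all genes. These comparisons share groups: the vehicle-treated diabetic mice enter both diabetes with vehicle and ATG in diabetic mice, and the ATG-treated nondiabetic mice enter both diabetes with ATG and ATG in nondiabetic mice. The vehicle-treated nondiabetic mice enter both diabetes with vehicle and ATG in nondiabetic mice, and the ATG-treated diabetic mice both diabetes with ATG and ATG in diabetic mice. The ATG effects in diabetic and nondiabetic mice differed by the test of that difference for none of the 9 members, against 0.546% of all genes (77 genes).

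**Figure D2:**
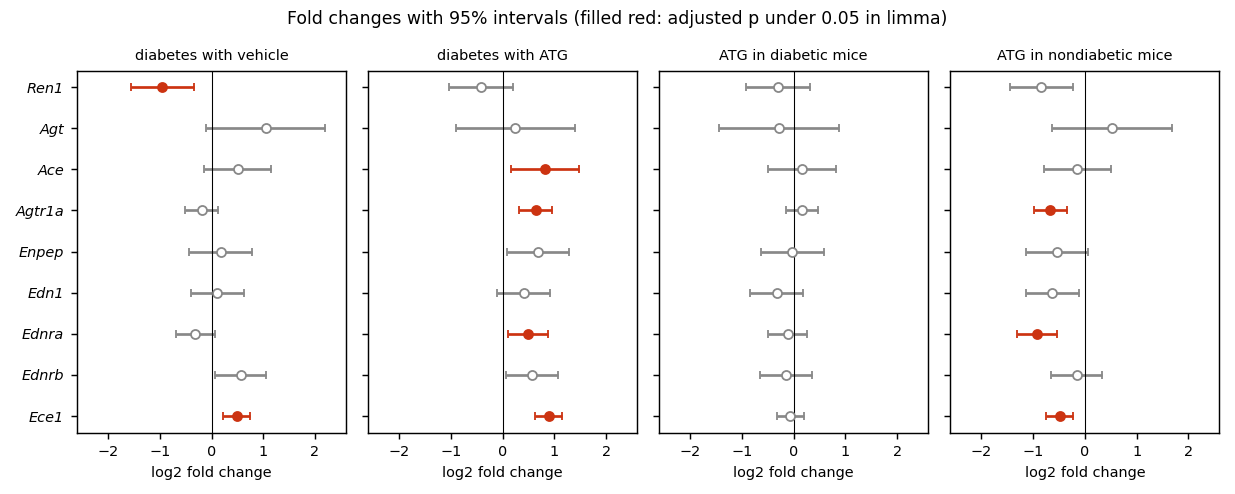
Log2 fold changes of the 9 genes in the 4 comparisons (n = 3 mice per group) with 95% intervals from limma. Filled red points mark genes called at an adjusted p under 0.05: Ren1 (lower) and Ece1 with vehicle, Ace, Agtr1a, Ednra and Ece1 with ATG, none for ATG in diabetic mice, and Agtr1a, Ednra and Ece1 (lower) for ATG in nondiabetic mice.

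Ren1 (NM_031192, mm10 chromosome 1, 133350674 to 133360319), which encodes renin, was highest in vehicle-treated nondiabetic mice, at log2 levels of 11.33, 11.71 and 11.78. In vehicle-treated diabetic mice it stood at 10.74, 10.13 and 11.11, so the groups did not overlap. The difference of -0.95 (SE 0.28) corresponds to 0.518 of the nondiabetic level, with an adjusted p of 0.0387 in limma and a 95% interval from -1.56 to -0.33. The ATG-treated nondiabetic mice, at 10.40, 11.11 and 10.80, also lay below all vehicle-treated nondiabetic mice, by -0.84 (SE 0.28), which was not called (limma adjusted p = 0.0927). The ATG-treated diabetic mice, at 9.94, 10.83 and 10.30, overlapped the vehicle-treated diabetic and the ATG-treated nondiabetic mice. Their difference from vehicle-treated diabetic mice was -0.31, with a 95% interval from -0.92 to 0.31.

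The call for Ren1 was a narrow one. It was lost (limma adjusted p) without vehicle-treated nondiabetic mouse 1 (0.0581), mouse 2 (0.120) or mouse 3 (0.107), without vehicle-treated diabetic mouse 1 (0.0903) or mouse 2 (0.0959, log2 fold change -0.68), and without ATG-treated diabetic mouse 3 (0.0545). With the mean of the proximal tubule markers as a covariate it was lost too (-1.21, SE 0.50, adjusted p = 0.247 in limma), a fit in which 7 genes were called in all. Ren2, a near-identical renin gene that some strains carry and C57BL/6 mice lack, is placed by the files over the same stretch (133350566 to 133360323), and its level was between 0.927 and 0.961 of that of Ren1 in each mouse. The same reads may stand behind both, so the value is best read as renin reads at this locus, its place in the order of levels included.

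Smooth muscle markers (8 of 8 listed, such as Myh11 and Acta2) were taken as the nearest list to the arteriolar renin cells. Relative to their mean, Ren1 was at -0.27 ± 0.53 (SD, n = 3) in vehicle-treated and -0.24 ± 0.12 in ATG-treated nondiabetic mice. In diabetic mice it was at -1.03 ± 0.36 with vehicle and -1.43 ± 0.40 with ATG. The nondiabetic groups thus differed by 0.03 on this scale (exact permutation p = 0.9, two-sided), while their smooth muscle markers differed by -0.87. The diabetic and nondiabetic ATG-treated groups differed by -1.19 without overlap (exact permutation p = 0.1, the smallest that 3 against 3 mice allow), and the vehicle-treated groups by -0.76 with overlap (exact permutation p = 0.2).

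**Figure D3:**
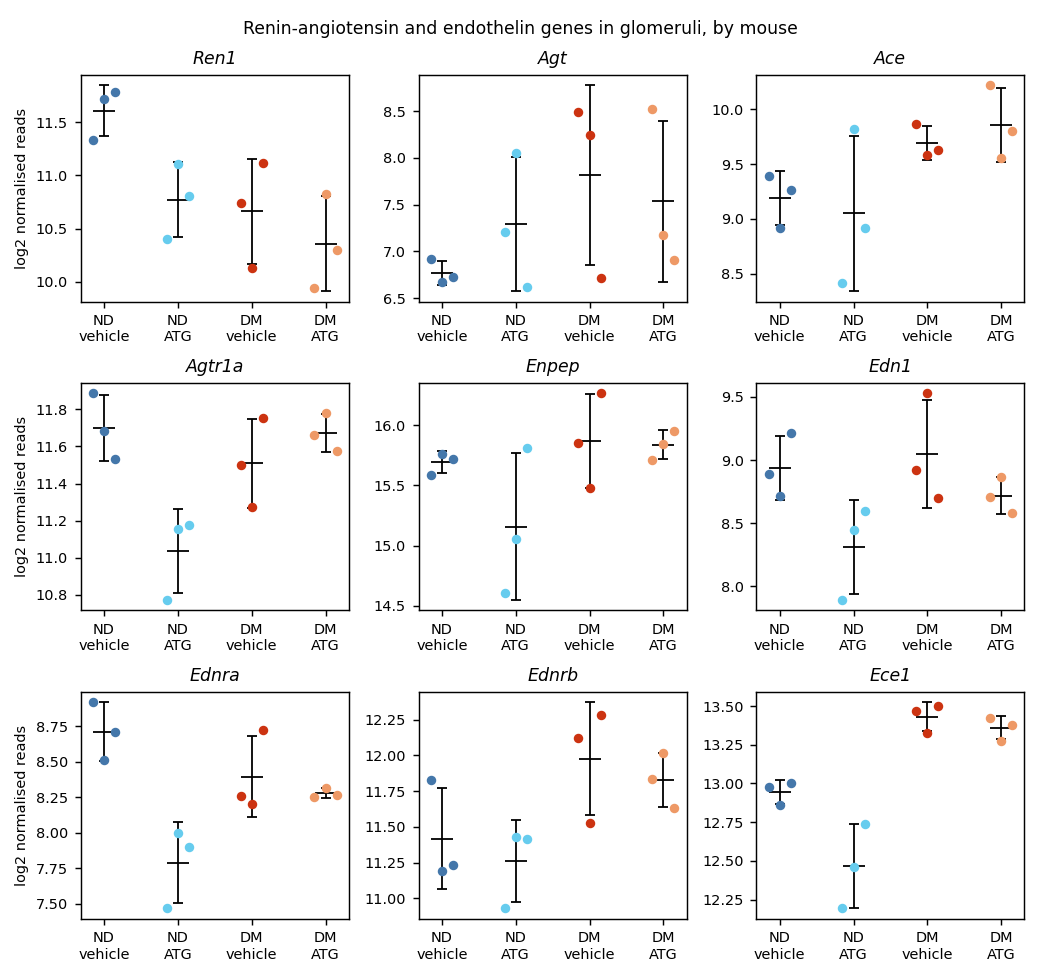
Log2 normalised reads of the 9 genes in each mouse (points) with the group mean and SD (bars, n = 3), for nondiabetic (ND) and diabetic (DM) mice on vehicle or ATG. Ren1 was highest in vehicle-treated nondiabetic mice, and Ece1 was highest in the diabetic groups, while Agt spread widely in every group but the first.

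Agt (NM_007428, chromosome 8, 124556587 to 124569707), the substrate of renin, was close to uniform in vehicle-treated nondiabetic mice (6.91, 6.68 and 6.72) and spread widely elsewhere. Vehicle-treated diabetic mice had 8.49, 8.24 and 6.71, ATG-treated diabetic mice 8.52, 7.18 and 6.91, and ATG-treated nondiabetic mice 7.21, 8.05 and 6.62. In each of these 3 groups at least 1 mouse lay above, and at least 1 within or below, the vehicle-treated nondiabetic range. The vehicle-treated groups differed by 1.05 (SE 0.52), which was not called (limma adjusted p = 0.179). Without vehicle-treated diabetic mouse 3 it was called, at 1.60 (SE 0.47, limma adjusted p = 0.0453).

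The proximal tubule is the main site of Agt in the kidney, and its markers were lower in diabetic mice, by -1.64 with vehicle and -2.04 with ATG. Relative to these markers, Agt was at -4.90 ± 0.39 and -5.18 ± 0.38 (SD, n = 3) in the nondiabetic groups on vehicle and ATG. It was at -2.21 ± 0.45 and -2.91 ± 0.85 in the diabetic groups, so that diabetic and nondiabetic mice did not overlap under either treatment (exact permutation p = 0.1 each, the smallest possible). Agt itself differed by 1.05 and 0.24 in these comparisons, with overlap and without a call, so the subtracted markers enter the separation. A gene that does not follow the tubule markers could separate likewise, so a change of Agt per tubule cell cannot be read from it. Agt counts were low, from 88 to 340 reads.

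Ace (NM_207624, chromosome 11, 105967945 to 105989964) was at 9.39, 8.92 and 9.26 in vehicle-treated nondiabetic mice and at 9.87, 9.59 and 9.63 in vehicle-treated diabetic mice. These groups did not overlap, but the difference of 0.50 (SE 0.30) was not called (limma adjusted p = 0.253). The ATG-treated nondiabetic mice were the most scattered, at 8.41, 9.82 and 8.92, and the ATG-treated diabetic mice stood at 10.22, 9.56 and 9.80. The diabetic mice were higher by 0.81 (SE 0.30, limma adjusted p = 0.0439) with overlap. That call was kept only without ATG-treated nondiabetic mouse 2, ATG-treated diabetic mouse 2 or vehicle-treated diabetic mouse 3, and was lost on leaving out any of the other 9 mice (limma adjusted p up to 0.173, without ATG-treated nondiabetic mouse 1, where the log2 fold change was 0.49). Endothelial markers differed by 0.99 in the same comparison, and relative to them Ace differed by -0.18 (exact permutation p = 0.8).

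Enpep (NM_007934, chromosome 3, 129269177 to 129332749), the peptidase that removes the first residue of angiotensin II, followed the podocyte markers from mouse to mouse. It stood at 15.59, 15.76 and 15.72 in vehicle-treated nondiabetic mice, at 15.86, 15.48 and 16.26 in vehicle-treated diabetic mice and at 15.71, 15.85 and 15.96 in ATG-treated diabetic mice. The ATG-treated nondiabetic mice ranged furthest, at 14.61, 15.05 and 15.81. No comparison called it, with differences of 0.17 (SE 0.27) for diabetes with vehicle, 0.68 for diabetes with ATG (limma adjusted p = 0.0621) and -0.53 for ATG in nondiabetic mice (0.207). Without ATG-treated nondiabetic mouse 3 both of the latter were called, at 1.01 (0.00313) and -0.86 (0.0180), and without vehicle-treated diabetic mouse 3 the former was (0.0452). Relative to the podocyte markers the group means lay between 1.68 and 1.81, with SDs from 0.019 to 0.054. On that scale vehicle-treated diabetic mice lay above vehicle-treated nondiabetic mice by 0.09 without overlap (exact permutation p = 0.1).

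Agtr1a (NM_177322, chromosome 13, 30336356 to 30382867), the angiotensin II type 1a receptor, was at 11.89, 11.68 and 11.53 in vehicle-treated nondiabetic mice. It was lower in each ATG-treated nondiabetic mouse, at 10.77, 11.15 and 11.18, than in any mouse of the other groups. The difference was -0.67 (SE 0.14), or 0.631 of the vehicle level (limma adjusted p = 0.0285). Vehicle-treated diabetic mice (11.50, 11.27 and 11.76) and ATG-treated diabetic mice (11.66, 11.78 and 11.58) overlapped each other and the vehicle-treated nondiabetic mice. Diabetes with vehicle gave -0.19 (95% interval -0.50 to 0.12) and diabetes with ATG 0.64 (SE 0.14, limma adjusted p = 0.00465).

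The ATG effects on Agtr1a in diabetic and nondiabetic mice differed by 0.83 (SE 0.20), with an unadjusted p of 0.00172 and an adjusted p of 0.108 in limma. Without ATG-treated nondiabetic mouse 3 that adjusted p was 0.0408. The lower level with ATG in nondiabetic mice lost its call without vehicle-treated nondiabetic mouse 1 (0.0928), mouse 2 (0.0690) or mouse 3 (0.0685) and without ATG-treated nondiabetic mouse 1 (0.0921) or mouse 2 (0.0605). Mesangial markers, such as Pdgfrb and Des, differed by -0.90 between the same mice. Relative to them Agtr1a was at -0.73 ± 0.15 with vehicle and -0.49 ± 0.06 with ATG (SD, n = 3), higher with ATG by 0.24 without overlap (exact permutation p = 0.1).

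Edn1 (NM_010104, chromosome 13, 42301270 to 42307989), which encodes the endothelin-1 precursor, was at 8.89, 8.71 and 9.21 in vehicle-treated nondiabetic mice and 8.92, 9.53 and 8.70 in vehicle-treated diabetic mice, a difference of 0.11 (95% interval -0.40 to 0.62). ATG-treated nondiabetic mice had lower values, at 7.89, 8.45 and 8.60, than each vehicle-treated nondiabetic mouse, by -0.63 (SE 0.23), which was not called (limma adjusted p = 0.110). ATG-treated diabetic mice were at 8.71, 8.87 and 8.58. Relative to the endothelial markers, the nondiabetic groups were at -3.76 ± 0.18 and -3.76 ± 0.12 (SD, n = 3) with vehicle and ATG. On that scale ATG-treated diabetic mice, at -4.34 ± 0.13, lay below ATG-treated nondiabetic mice by -0.59 without overlap (exact permutation p = 0.1), opposite in sign to the difference in level of 0.41, which was not called (limma adjusted p = 0.168). Without ATG-treated nondiabetic mouse 3 the lower level with ATG in nondiabetic mice was called (-0.77, limma adjusted p = 0.0468).

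Ece1 (NM_199307, chromosome 4, 137862237 to 137965229), the converting enzyme, was the member with the smallest standard error. Vehicle-treated nondiabetic mice had 12.97, 12.86 and 13.00, vehicle-treated diabetic mice 13.47, 13.32 and 13.50, ATG-treated diabetic mice 13.42, 13.28 and 13.38, and ATG-treated nondiabetic mice 12.20, 12.46 and 12.74. All 6 diabetic mice lay above all 6 nondiabetic mice. The fold changes were 0.49 (SE 0.12) with vehicle, 1.40-fold (limma adjusted p = 0.0196), and 0.90 (SE 0.12) with ATG, 1.86-fold (limma adjusted p = 0.000387). In nondiabetic mice ATG gave -0.48 (SE 0.12, limma adjusted p = 0.0437), and in diabetic mice -0.07 (95% interval -0.33 to 0.19). These ATG effects differed by 0.41 (SE 0.17, limma adjusted p = 0.344), or by 0.55 (0.0408) without ATG-treated nondiabetic mouse 3.

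The call for Ece1 with vehicle was lost without vehicle-treated nondiabetic mouse 1 (limma adjusted p = 0.0522) or mouse 2 (0.0792) and without vehicle-treated diabetic mouse 1 (0.0679). With ATG the call was kept on leaving out each of the 12 mice (highest limma adjusted p 0.00264). With the proximal tubule covariate both were lost, at 0.34 (SE 0.21, limma adjusted p = 0.414) with vehicle and 0.72 (SE 0.24, 0.185) with ATG. These fits called 7 and 30 genes in all. The lower level with ATG in nondiabetic mice was called only without ATG-treated nondiabetic mouse 3 or without vehicle-treated diabetic mouse 2 or mouse 3, and not on leaving out any of the other 9 mice (limma adjusted p up to 0.169, without vehicle-treated nondiabetic mouse 3). Endothelial markers, such as Pecam1 and Kdr, moved alongside, by 0.32, 0.99 and -0.63 in these 3 comparisons, without overlap. Relative to them Ece1 was at 0.25 ± 0.019 (SD, n = 3) in vehicle-treated nondiabetic and 0.42 ± 0.048 in vehicle-treated diabetic mice, a difference of 0.16 without overlap (exact permutation p = 0.1). It was at 0.40 ± 0.064 and 0.30 ± 0.078 in ATG-treated nondiabetic and diabetic mice, a difference of -0.10 with overlap (exact permutation p = 0.2). Between the nondiabetic groups it was higher with ATG on this scale, by 0.15 without overlap (exact permutation p = 0.1), opposite in sign to the difference in level.

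Ednra (NM_010332, chromosome 8, 77663029 to 77724452), the endothelin A receptor, was at 8.92, 8.51 and 8.71 in vehicle-treated nondiabetic mice and at 7.47, 8.00 and 7.90 with ATG. The groups did not overlap, and the difference of -0.92 (SE 0.17), or 0.528 of the vehicle level, had a limma adjusted p of 0.0165. Vehicle-treated diabetic mice were at 8.26, 8.20 and 8.72 and ATG-treated diabetic mice at 8.25, 8.32 and 8.27, a difference of -0.12 (95% interval -0.50 to 0.26). Diabetes gave -0.32 (SE 0.17, limma adjusted p = 0.213) with vehicle and 0.49 (SE 0.17, limma adjusted p = 0.0372) with ATG.

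The difference between the ATG effects on Ednra was 0.81 (SE 0.24, limma adjusted p = 0.203). The lower level in nondiabetic mice lost its call without vehicle-treated nondiabetic mouse 1 (limma adjusted p = 0.0677) or mouse 3 (0.0759) and without ATG-treated nondiabetic mouse 1 (0.0528). The higher level in diabetic mice with ATG lost it without ATG-treated diabetic mouse 1 (0.0732), mouse 2 (0.0921) or mouse 3 (0.0804), without ATG-treated nondiabetic mouse 1 (0.146) and without vehicle-treated nondiabetic mouse 3 (0.0511). Relative to the mesangial markers, Ednra was at -3.72 ± 0.060 and -3.74 ± 0.13 (SD, n = 3) in nondiabetic mice on vehicle and ATG (difference -0.02, exact permutation p = 0.9). On that scale ATG-treated diabetic mice, at -4.04 ± 0.13, lay below ATG-treated nondiabetic mice by -0.30 without overlap (exact permutation p = 0.1), opposite in sign to the difference in level.

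Ednrb (NM_001136061, chromosome 14, 103814615 to 103844476), the endothelin B receptor, was at 11.83, 11.19 and 11.23 in vehicle-treated nondiabetic mice and at 12.12, 11.53 and 12.28 in vehicle-treated diabetic mice. The groups overlapped through the first nondiabetic and the second diabetic mouse, and the difference of 0.56 (SE 0.23) was not called (limma adjusted p = 0.103). Without that diabetic mouse it was called, at 0.78 (limma adjusted p = 0.0277). ATG-treated diabetic mice, at 11.84, 12.01 and 11.63, lay above ATG-treated nondiabetic mice, at 10.93, 11.43 and 11.42, by 0.57 (SE 0.23, limma adjusted p = 0.0584). That difference was called without vehicle-treated nondiabetic mouse 1 (0.0409) and without vehicle-treated diabetic mouse 2 (0.0298) or mouse 3 (0.0466). Relative to the endothelial markers the group means ranged from -1.28 to -0.81, and the vehicle-treated groups differed by 0.24 with overlap (exact permutation p = 0.5). Between the ATG-treated groups, diabetic mice lay lower on this scale, by -0.42 without overlap (exact permutation p = 0.1, the smallest possible), opposite in sign to the difference in level.

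**Figure D4:**
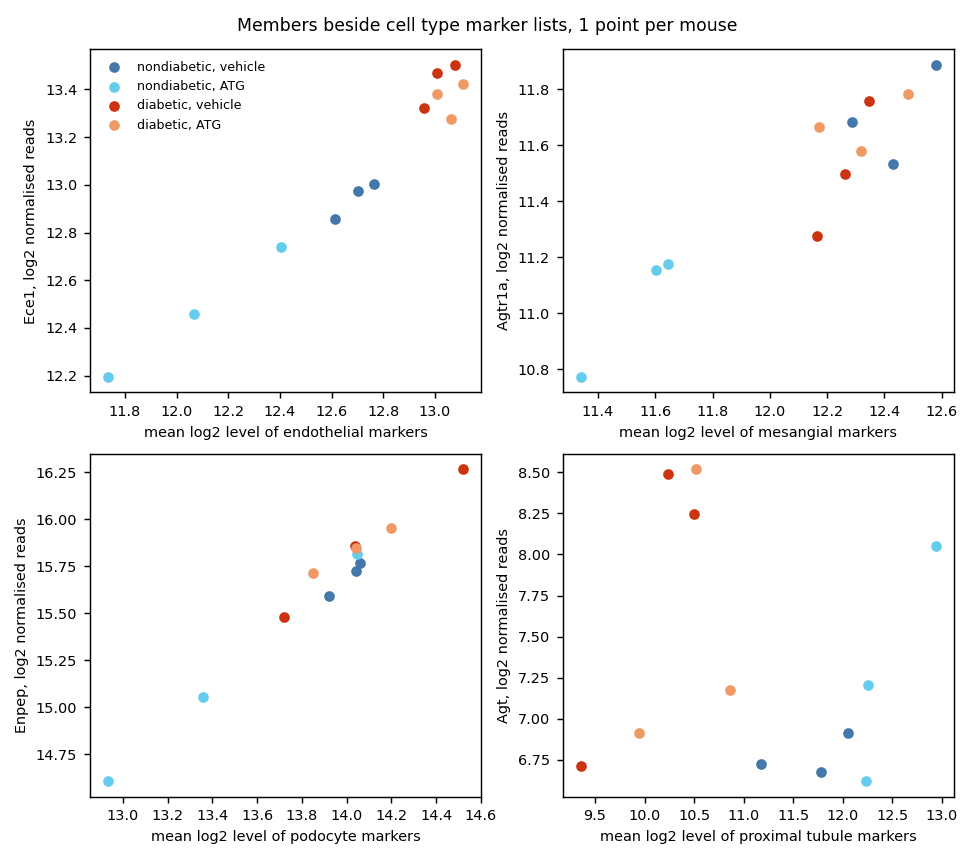
Log2 normalised reads of Ece1, Agtr1a, Enpep and Agt in each mouse (y axes) against the mean log2 level of the endothelial, mesangial, podocyte and proximal tubule markers (x axes), with 1 point per mouse coloured by group (3 mice each). Ece1, Agtr1a and Enpep stand low where their markers are low, as in ATG-treated nondiabetic mice 1 and 2, while the third mouse of that group overlaps the others for Enpep and the podocyte markers, and the highest Agt values occur in diabetic mice, whose tubule markers are low.

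Beyond the 9 members, 40 of 49 further genes of the 2 systems and of renin cells were listed. The receptor genes Agtr1b, Agtr2 and Mas1 were not among the listed genes, each of which reached a linear value of 100 in at least 1 mouse. The renin-control list had 10 of 10 listed, and 4 of them were lower in diabetic mice on vehicle, with none higher. Of all genes, 18.9% were called in either direction (1442 higher and 1217 lower). Among ATG-treated mice, 4 were higher in diabetic mice, such as Gja4 (1.28) and Gja5 (1.14), which encode gap junction proteins, and 3 were lower, against 46.7% of all genes. With the proximal tubule covariate, in a fit that called 30 genes in all, Gja4 was at 0.80 (limma adjusted p = 0.165) and Gja5 at 0.64 (0.461), neither called. Endothelial markers differed by 0.99 in that comparison. The 4 lower on vehicle were Adrb1 (beta-1 adrenergic receptor, which drives renin release), at -1.14 (SE 0.26, limma adjusted p = 0.0167), Nos1 (the nitric oxide synthase of the macula densa), at -0.76 (0.0134), Vdr (vitamin D receptor, a repressor of renin transcription), at -0.75 (0.0115), and Adcy6 (an adenylyl cyclase), at -0.45 (0.0361). Without vehicle-treated nondiabetic mouse 2, Nos1 (limma adjusted p = 0.0549), Vdr (0.0522) and Adrb1 (0.0716) were not called, and Adrb1 was also lost without vehicle-treated nondiabetic mouse 3 (0.0504) or vehicle-treated diabetic mouse 1 (0.0626). Adcy6 was called only without vehicle-treated diabetic mouse 2, ATG-treated diabetic mouse 1 or ATG-treated nondiabetic mouse 1 or 3, and was lost without any of the other 8 (limma adjusted p up to 0.118). Adrb1 and Nos1 rested on few reads (62 to 292, and 170 to 355). Markers of the proximal tubule and of the distal nephron (21 of 21 listed) differed by -1.64 and -0.88 in the same comparison. With the proximal tubule covariate, a fit that called 7 genes in all, none of the 4 kept its call (limma adjusted p from 0.303 to 0.522). Their values in it were -1.01 for Adrb1, -0.48 for Nos1, -0.48 for Vdr and -0.30 for Adcy6.

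The mineralocorticoid arm had 3 of 3 genes listed and 2 lower on vehicle, against 18.9% of all genes called. Hsd11b2, which shields the mineralocorticoid receptor from glucocorticoids and is a collecting duct gene, stood at 12.54 ± 0.16 in nondiabetic and 10.89 ± 0.72 (SD, n = 3) in diabetic mice, a log2 fold change of -1.65 (limma adjusted p = 0.00669). Nr3c2, the receptor itself, changed by -0.62 (limma adjusted p = 0.0436), a call that held only without ATG-treated diabetic mouse 1 or 3 or ATG-treated nondiabetic mouse 1 or 3 (limma adjusted p up to 0.129 otherwise). Sgk1, a kinase induced by the receptor, was at 13.82 ± 0.10 and 14.30 ± 0.06, a difference of 0.48 that was not called (limma adjusted p = 0.0723), and with ATG in both arms it rose by 1.48 (SE 0.17, limma adjusted p = 0.000223). Hsd11b2 and Nr3c2 were lower in that comparison, at -1.97 (limma adjusted p = 0.000701) and -0.96 (0.00271), where distal nephron marker means differed by -1.21 without overlap. None of the 3 was called there with the proximal tubule covariate, with Sgk1 at 1.85 (limma adjusted p = 0.0565), Hsd11b2 at -1.02 (0.378) and Nr3c2 at -1.21 (0.173). That fit called 30 genes in all. In the endothelin list (2 of 3 listed), Edn3, the endothelin-3 precursor, fell by 0.85 on vehicle (SE 0.17, limma adjusted p = 0.0100) on 100 to 231 reads, with a like value between the ATG-treated diabetic and nondiabetic mice (-0.83, 0.00316). With the proximal tubule covariate, Hsd11b2 was at -0.88 (limma adjusted p = 0.337), Edn3 at -0.47 (0.401) and Nr3c2 at -0.82 (0.243) on vehicle, none called, and Edn3 at -0.36 (0.626) among ATG-treated mice. Ece2, its other gene, was not called.

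Of 11 listed angiotensin-processing enzymes and partners, none was called with vehicle, against 18.9% of all genes (median log2 fold change 0.05 against 0.01 over all genes). Prcp, which cleaves angiotensin II at its carboxyl end, came nearest, at 0.33 (limma adjusted p = 0.0506). It was called under 7 of 20 alternatives, 4 of which left out a mouse (lowest limma adjusted p 0.0290), and stood at 0.70 with the tubule covariate, where it was not called. Among ATG-treated mice, 3 of the 11 were lower in diabetic than in nondiabetic mice (46.7% of all genes called), Anpep (aminopeptidase N) at -1.05 (limma adjusted p = 0.00905), Nln (neurolysin) at -0.42 (0.0347) and Atp6ap2 (the prorenin receptor) at -0.36 (0.00326). Nln lost its call without any of the 3 ATG-treated diabetic mice (limma adjusted p from 0.0685 to 0.0849) and without ATG-treated nondiabetic mouse 1 (0.138, log2 fold change -0.27) or mouse 2 (0.0872). Anpep is a proximal tubule brush border enzyme, and with the tubule covariate its sign turned (0.29, limma adjusted p = 0.698). The proximal tubule markers differed by -2.04 in this comparison, and with the covariate Nln was at -0.11 (limma adjusted p = 0.895) and Atp6ap2 at -0.22 (0.514), neither called. That fit called 30 genes in all. Agtrap, which promotes internalisation of the type 1 receptor, was the only listed gene of its 6-gene list and, among ATG-treated mice, was lower in diabetic than in nondiabetic mice (-0.41, limma adjusted p = 0.00478), or by -0.15 (0.713) with the covariate.

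Of 13 genes of the Gq pathway, to which Agtr1a and both endothelin receptors couple, 2 were higher and 1 lower on vehicle. Adrbk1 (a receptor kinase) rose by 0.29 (limma adjusted p = 0.0204) and Gna11 (a Gq-class subunit) by 0.18 (0.0429), while Plcb4 (a phospholipase C) fell by 0.34 (0.0309). None of the 3 kept its call with the proximal tubule covariate, at 0.32 for Adrbk1 (limma adjusted p = 0.241), 0.17 for Gna11 (0.407) and -0.51 for Plcb4 (0.157). That fit called 7 genes in all. Gna11 kept its call only without ATG-treated nondiabetic mouse 1 or 3 (limma adjusted p up to 0.124 otherwise). Plcb4 lost it without vehicle-treated nondiabetic mouse 2 (0.110) or mouse 3 (0.0973) and without vehicle-treated diabetic mouse 1 (0.0990) or mouse 2 (0.0700), and Adrbk1 without vehicle-treated nondiabetic mouse 1 (0.0598) or mouse 2 (0.0834) and vehicle-treated diabetic mouse 1 (0.0657). With ATG in both arms, 8 of the 13 were higher and none lower, against 46.7% of all genes called in either direction (3649 higher and 2936 lower). Endothelial, mesangial and smooth muscle marker means differed by 0.99, 0.79 and 0.78 in that comparison, and their part in the result was not tested. Over the 40 genes, 2 were higher and 8 lower on vehicle, 13 higher and 10 lower with ATG, none differed between diabetic mice on ATG and vehicle, and 6 were lower and none higher with ATG in nondiabetic mice. The corresponding shares of all genes called were the 18.9%, 46.7%, 0% and 5.22% given above.

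**Figure D5:**
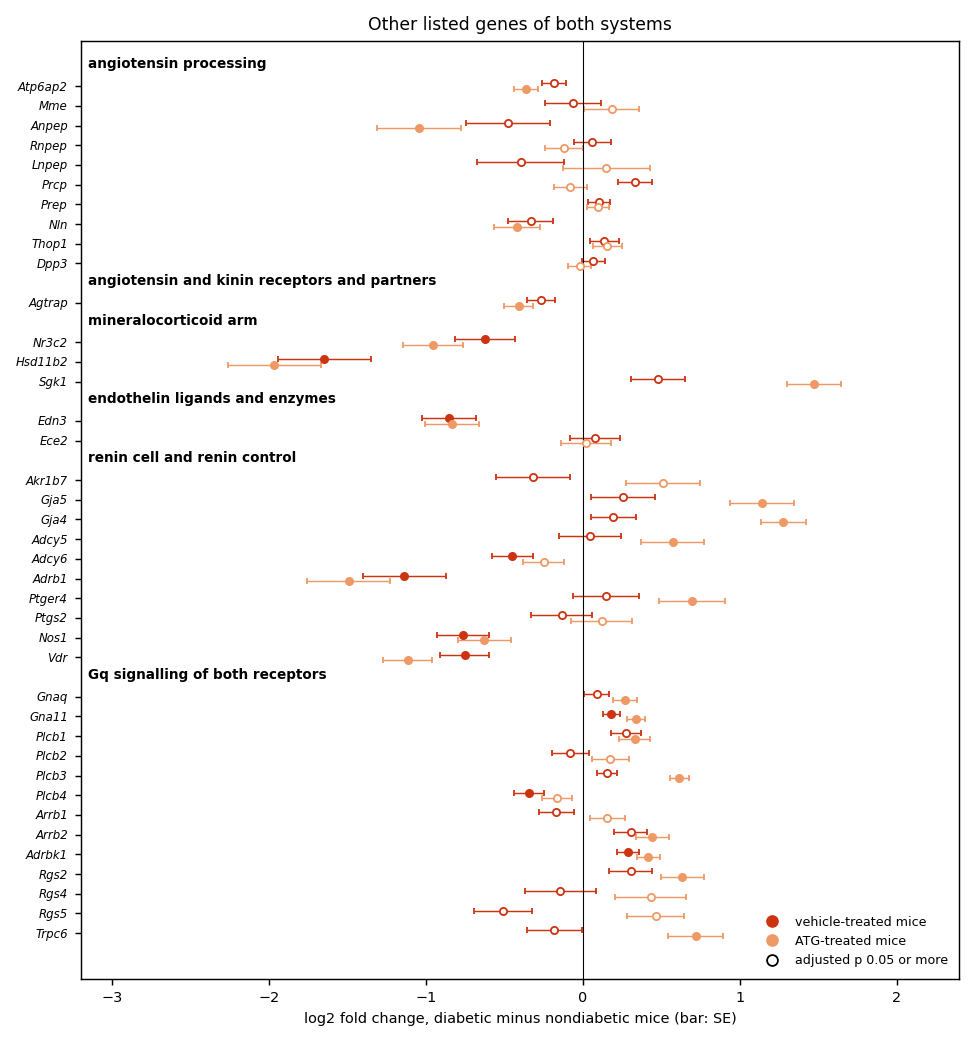
Log2 fold changes (bars, SE) between diabetic and nondiabetic mice for 39 of the 40 listed genes of the 6 lists, in vehicle-treated mice (red) and ATG-treated mice (orange), with n = 3 mice per group and filled points for an adjusted p under 0.05 in limma. Hsd11b2 and Adrb1 lie lowest, and the Gq genes lie mostly above 0 in ATG-treated mice.

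For each member the genes with the most similar pattern over the 12 mice were found by Pearson's r of log2 values, given as a description since libraries share groups and composition. For Enpep these were Srgap1 (r = 0.999), Podxl (0.997) and Golim4 (0.995), of which Podxl is one of the podocyte markers. For Ece1 they were Cdh5 (0.998), an endothelial marker, Msn (0.997) and Fstl1 (0.995). Agtr1a ran closest to Itga8 (0.979), a mesangial marker, and Ednra to Notch3 (0.937), another. Agt was closest to Ldha (0.951) and Slc38a3 (0.948), which encode lactate dehydrogenase A and a glutamine transporter. Edn1 was closest to Fbxo46 (0.947), Ace to Gm12505 (0.936) and Ednrb to Eml3 (0.919). After Ren2, Ren1 was closest to E130310I04Rik (0.910).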

How the data were processed

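Glomeruli of 12 mice were isolated with magnetic beads and their poly-A RNA was sequenced at a service provider for the authors. The labels also describe a dissociation and EYFP sort that is absent from the methods of the paper, and the glomeruli are treated as whole. Deposited for each mouse is 1 log2 value per gene, made by the authors. The submitters' processing notes name the build mm10 and limma; the aligner, counter and scaling are not given in the sources used here. Taken as powers of 2, between 83.4% and 84.1% of values under 2000 were whole multiples of 1 step per library (within 0.02 reads), so that most values are reads times one factor per library, with no division by length. The remaining values were not whole, and reads given for them are rounded. Dividing by that step gave 23.6 to 29.8 M (mega) reads per mouse.

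The 14096 listed genes were tested with limma 3.58.1 in R 4.3.3, with a mean-variance trend, all 4 groups in one fit and 5 contrasts, and Benjamini-Hochberg adjustment at 0.05. Levels between genes were compared per kilobase of the listed transcript. Marker-relative values are differences of log2 values, compared with two-sided exact permutation tests. The fit was checked on simulated data. The members and gene lists were chosen with earlier results of these data known. Named are the 9 members, up to 4 genes per list with the lowest p for diabetes with vehicle, and the 3 genes most like each member (the most alike where fewer are printed). Other named genes of the lists were chosen after their values were seen. Alternatives were a minimum of 10 reads, only the groups compared, a replicate block, median-ratio scaling, the proximal tubule markers as covariate, no variance trend, limma-voom on recovered reads, each mouse left out, the 2 nondiabetic mice whose titles lack a number left out, and a threshold of 0.10. Values relative to markers and counts of groups without overlap were added after the data had been seen. Values of 1 gene of the lists are not reported here. Figures were drawn with matplotlib 3.10.9.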

Additional observations from a re-analysis of the deposited data

Results flagged for a closer look

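No member, but 2 of the 40 other listed genes, had ATG effects that differed between diabetic and nondiabetic mice by the test of the difference itself (0.546% of all genes did). They are named after their values were seen. Gja4, which encodes a connexin, a gap junction protein of endothelium and renin cells, had a difference between the ATG effects of 1.08 on the log2 scale (SE 0.20, limma adjusted p = 0.0489). Its log2 level was 10.26 ± 0.18 (SD, n = 3) with vehicle and 9.53 ± 0.21 with ATG in nondiabetic mice, and 10.45 ± 0.27 and 10.81 ± 0.068 in diabetic mice. Plcb3, a phospholipase C that Gq subunits activate, had a difference of 0.46 (SE 0.087, limma adjusted p = 0.0494), with levels of 11.39 ± 0.018 and 10.98 ± 0.096 in nondiabetic mice and 11.55 ± 0.066 and 11.59 ± 0.037 in diabetic mice. Each kept its call only without ATG-treated nondiabetic mouse 3 or vehicle-treated diabetic mouse 3 and lost it on leaving out any of the other 10 mice, up to adjusted p values of 0.141 for Gja4 and 0.161 for Plcb3 in limma. The endothelial markers were at 11.73 to 12.40 in the ATG-treated nondiabetic mice and between 12.61 and 13.11 in the other 3 groups, and their part in the result was not tested.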

How the results depend on the processing

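Over 20 alternatives, none of the 9 called member values changed sign, and each lost its call under at least 1. Of the uncalled member values, 8 were called under at least 1. With the proximal tubule markers as a covariate, 0 members were called for diabetes with vehicle, diabetes with ATG and ATG in nondiabetic mice, with 7, 30, 49 and, for the difference between the ATG effects, 28 genes called in all, and Anpep, lower in diabetic than in nondiabetic ATG-treated mice, turned to higher (0.29). The tubule markers did not overlap between the groups in either diabetes comparison or for ATG in nondiabetic mice. A call lost in the covariate fit therefore says little about a single gene. Some log2 fold changes in that fit stayed close to their values or grew while their errors widened, such as Ren1 at -1.21 for diabetes with vehicle, Ace at 1.35 and Agtr1a at 0.69 for diabetes with ATG, and Agtr1a at -0.68 and Ednra at -0.87 for ATG in nondiabetic mice. The replicate block by title number called 1375 genes for diabetes with vehicle, 2 members for diabetes with ATG and 8 genes for the difference. Deviations from the group mean in mice with the same title number correlated at r from -0.59 to 0.34, over 0.1 in 5 of 13 pairs. Between the diabetic groups r was 0.315, 0.0537 and 0.339. With 3 mice per group such correlations cannot exclude a pairing, and the main fit treats the mice as unpaired. For nondiabetic mice the title numbers are not the mouse numbers used here. Median-ratio scaling left 2 members for diabetes with ATG. Without the 2 unnumbered nondiabetic mice, 4314 genes and 2 members were called for diabetes with ATG, 6 genes for the difference, and 8 genes and 0 members for ATG in nondiabetic mice. With only the 2 groups compared, ATG in nondiabetic mice called 0 genes and 0 members. Without a variance trend the difference called 19 genes. At 0.10 the counts of genes were 4136 for diabetes with vehicle, 215 for the difference and 2145 for ATG in nondiabetic mice. Leaving out each mouse gave 801 to 3357 genes and 0 to 3 members for diabetes with vehicle, 4766 to 7451 genes and 2 to 6 members for diabetes with ATG, 6 to 770 genes and 0 to 2 members for the difference, and 60 to 3531 genes and 0 to 5 members for ATG in nondiabetic mice. The highest counts for these last 2 came without ATG-treated nondiabetic mouse 3. The cause of these changes was not tested. Depth limits mainly Agt, with 88 reads in its lowest library, and Ednra, with 139.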

Other observations

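In nondiabetic mice, 6 of the 40 further genes were lower with ATG and none was higher, against 5.22% of all genes called, with 636 lower and 100 higher. The 6 are named here after their values were seen. Of the renin-control list, Akr1b7, an aldose reductase family enzyme found in renin cells, changed by -0.95 (SE 0.24, limma adjusted p = 0.0443). The connexin genes Gja5 and Gja4 changed by -0.80 (0.0493) and -0.73 (0.0213). Of the Gq list, Trpc6, a cation channel of podocytes and contractile cells, changed by -1.10 (SE 0.18, limma adjusted p = 0.00994), Rgs5, a regulator of G protein signalling known from pericytes, by -0.76 (0.0402) and Plcb3 by -0.42 (0.00825). Akr1b7 and Gja5 kept their calls only without ATG-treated nondiabetic mouse 3 or vehicle-treated diabetic mouse 2 or 3, and Rgs5 only without these or vehicle-treated nondiabetic mouse 2 (limma adjusted p up to 0.163, 0.170 and 0.169 otherwise). Gja4 lost its call without vehicle-treated nondiabetic mouse 1 (0.0717) or 3 (0.110) or ATG-treated nondiabetic mouse 1 (0.0785) or 2 (0.0812), Plcb3 without vehicle-treated nondiabetic mouse 3 (0.0511) and Trpc6 without vehicle-treated nondiabetic mouse 1 (0.0505). The smooth muscle, mesangial, endothelial and podocyte marker means differed by -0.87, -0.90, -0.63 and -0.56 in the same comparison. Proximal tubule and distal nephron marker means differed the other way, by 0.81 (without overlap) and 0.46 (with overlap). With the proximal tubule covariate, in a fit that called 49 genes in all, none of the 6 kept its call (limma adjusted p from 0.0507 to 0.317). Their values in it ran from -1.22 for Trpc6 to -0.40 for Plcb3. The part of the marker differences in these results was not tested.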
